A study of Mus musculus with 2 samples.

Results

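The contractile genes described here are 10 of the 32285 genes in the deposited matrices: Acta2, Actg2, Myl9, Myh11, Tagln, Cnn1, Cald1, Tpm1, Tpm2 and Des. They were taken by symbol, and all 10 were found. Their raw UMI counts (unique molecular identifiers, 1 per captured transcript) were summed over the cells of each cell class, with fibroblasts kept apart from the cells that carry Rgs5, a transcript of pericytes. Cells were clustered without these genes, so that their levels did not form the classes.

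Smooth muscle actin filaments slide along smooth muscle myosin when its light chains are phosphorylated, while calponin, caldesmon and tropomyosin set how freely the filaments meet, and desmin ties them into the cell. Pericytes and vascular smooth muscle cells wrap vessels with this apparatus, and in pancreatic tumours a share of the fibroblasts, known as myofibroblasts, makes part of it as well. Serum response factor, with its cofactors of the myocardin family, is known to switch the genes on through a DNA motif called the CArG box.

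Single-cell RNA was sequenced from 2 libraries of dissociated pancreatic tumours, 1 from KPPC mice given vehicle and 1 from KPPC mice given takinib, an inhibitor of the kinase TAK1, at 50 mg/kg. The mice of both libraries were 6 weeks old and were treated for 14 days. KPPC is an engineered mouse model of pancreatic cancer that develops tumours in its own pancreas. Its alleles are not spelled out in the labels, nor is the number of mice behind a library. With 1 library a group there was no replicate and no test was possible: every interval below is an exact 95% interval that covers counting error only.

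The vehicle library held 9591 cells after filters and removal of doublets (median 3558 UMIs) and the takinib library 25183 (median 2891). The classes of interest were small and uneven: 705 fibroblasts in vehicle and 352 in takinib (medians of 3388 and 7715 UMIs), and 586 Rgs5 cells in vehicle against 15 in takinib (medians of 3125 and 3808 UMIs). Rgs5 itself stood at 9439 CPM (counts scaled to 1e6 UMIs of the class) in the vehicle Rgs5 cells and at 17.0 CPM in the vehicle fibroblasts. All 10 fibroblast markers had counts in the vehicle fibroblasts, with a summed level of 33541 CPM, against 5748 CPM in the vehicle Rgs5 cells. No cluster was named as myofibroblasts, since the genes that would define them are the ones described here.

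Features of the libraries move with the groups compared below. The vehicle library mixed cells of both sexes: 1081 cells had Xist and no Y-linked UMI, 3098 had Y-linked UMIs and no Xist, 169 had both and 5243 had neither. In takinib 14314 cells had Xist and 0 had a Y-linked UMI. Past the filters, 400 cell barcodes occurred in both libraries, 15 of them among the vehicle fibroblasts and 28 among the vehicle Rgs5 cells. Neutrophil transcripts were far more abundant in the takinib stromal classes. In vehicle fibroblasts 8 of the 9 neutrophil markers were detected, with a summed level of 228 CPM and Ly6g at 0, and in takinib fibroblasts 9 of 9, with 10965 CPM. S100a8 and S100a9 made up 99.7 and 9982 CPM of these sums. Values within each origin, at equal depth and at low and high levels of neutrophil transcripts are given with the results they touch.

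Acta2, the smooth muscle α-actin that serves as the usual myofibroblast marker, lies on the minus strand at chr19:34241090-34255590 of GRCm38. It was measured at 2672 CPM (5959 UMIs) in vehicle Rgs5 cells, 423 CPM (1243 UMIs) in vehicle fibroblasts, 468 CPM (1781 UMIs) in takinib fibroblasts and 2554 CPM (202 UMIs) in the 15 takinib Rgs5 cells. The level was 6.32 times higher in Rgs5 cells than in fibroblasts of the vehicle library (log2 ratio 2.66, interval 2.57 to 2.75). Between the fibroblasts of the 2 libraries the log2 ratio of takinib over vehicle was 0.15 (0.04 to 0.25), a value over pooled cells that lay in different subclusters in each library. It turned to -0.30 with cells thinned to equal depth, to -0.017 against male vehicle cells and to -1.97 without the takinib subcluster led by Serpinb2, described below. The last value follows from the removal, since that subcluster held 92.0% of the Acta2 UMIs of takinib fibroblasts. In the takinib Rgs5 cells, 91 of the 202 UMIs came from 1 cell.

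Actg2, the γ-actin of enteric smooth muscle (chr6:83512905-83536265, minus strand), followed the same order at 210 CPM (468 UMIs) in vehicle Rgs5 cells and 40.8 CPM (120 UMIs) in vehicle fibroblasts. It stood at 14.99 CPM (57 UMIs) in takinib fibroblasts, a log2 ratio over vehicle of -1.44 (-1.93 to -0.98). The ratio was -0.30 against female vehicle cells, which held 9 UMIs, and more than 2-fold lower against male ones. Over the pooled fibroblasts Acta2 was thus near level between the libraries and Actg2 was lower in takinib.

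The promoter windows of Acta2 and Myl9 are printed because they are the ones among the matched members that hold a CArG box or a near match to it. Windows run from 250 bases before to 50 after the start site, are taken from RefSeq on GRCm38.p6 and read 5′ to 3′ on the gene's own strand. Capitals mark the boxes. Acta2 lies at chr19:34255324-34255623 on the minus strand and Myl9 at chr2:156775214-156775513 on the plus strand.
Acta2: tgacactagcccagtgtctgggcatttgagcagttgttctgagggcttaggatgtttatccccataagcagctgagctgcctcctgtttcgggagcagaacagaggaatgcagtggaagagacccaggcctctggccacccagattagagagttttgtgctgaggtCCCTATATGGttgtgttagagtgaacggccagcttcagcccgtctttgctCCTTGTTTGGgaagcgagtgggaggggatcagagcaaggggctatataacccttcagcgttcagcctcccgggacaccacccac
Myl9: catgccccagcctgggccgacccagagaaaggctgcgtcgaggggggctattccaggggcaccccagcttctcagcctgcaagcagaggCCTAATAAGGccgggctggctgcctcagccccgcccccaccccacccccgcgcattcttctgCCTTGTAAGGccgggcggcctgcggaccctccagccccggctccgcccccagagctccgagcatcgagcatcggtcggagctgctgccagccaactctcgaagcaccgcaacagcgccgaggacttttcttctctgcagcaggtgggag
The table held 8 promoters for 7 of the 10 members and none for Tagln, Myh11 or Actg2. The CArG box (2 C, then 6 bases of A or T, then 2 G, both strands read) occurred in Myl9, starting 161 bases upstream of the start site, and in 1.63% of the 32851 promoters of the table. With 1 mismatch allowed among the 6 inner bases, Acta2 held boxes 84 and 34 bases upstream and Myl9 a further one 99 bases upstream, against 8.50% of all promoters. The TEAD-type motif GGAATG was found in Acta2, Cald1 and Tpm1 and in 14.7% of all promoters. The letters TGGGAA, tied to RBPJ and Notch, were found in Acta2 and Tpm1 and in 25.6%. A match describes the letters of this window and was not measured as a bound site.

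Myl9, the regulatory light chain of smooth muscle myosin (chr2:156775420-156781658, plus strand), stood at 799 CPM (1781 UMIs) in vehicle Rgs5 cells and 114 CPM (335 UMIs) in vehicle fibroblasts. It was 7.01-fold higher in Rgs5 cells (log2 ratio 2.81, interval 2.64 to 2.98). In takinib it was at 49.2 CPM (187 UMIs) in fibroblasts and 835 CPM (66 UMIs) in Rgs5 cells. The fibroblast level was thus lower in takinib by 2.32-fold, whereas the Rgs5 cells of the 2 libraries overlapped within counting error (log2 ratio 0.06, interval -0.31 to 0.42). Female vehicle fibroblasts alone stood at 75.7 CPM (37 UMIs), within 2-fold of takinib, and male ones at 128 CPM (167 UMIs).

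Myh11, the smooth muscle myosin heavy chain and a marker of mature smooth muscle (chr16:14194535-14291372, minus strand), stood at 298 CPM (664 UMIs) in vehicle Rgs5 cells and 42.9 CPM (126 UMIs) in vehicle fibroblasts. Takinib fibroblasts held 19 UMIs of it, or 4.997 CPM, and the takinib Rgs5 cells 37 UMIs in 6 cells, or 468 CPM. Over the pooled fibroblasts it was 8.58-fold lower in takinib (log2 ratio -3.10, interval -3.88 to -2.40). In Rgs5 cells the ratio was 0.65 (0.13 to 1.13). The fibroblast value rests on few vehicle cells: 27 of 705 had a UMI, and the 10 highest held 77.0% of them. Without the vehicle cells of the Hhip subcluster described below the fibroblast ratio was -1.53, and with the members among the clustering genes -1.54.

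Tagln, also called SM22α, an actin-binding protein induced early in smooth muscle and myofibroblasts, lies at chr9:45929619-45936058 on the minus strand and overlaps Pcsk7 on the other strand. It stood at 1753 CPM (3910 UMIs) in vehicle Rgs5 cells, 679 CPM (1997 UMIs) in vehicle fibroblasts, 388 CPM (1476 UMIs) in takinib fibroblasts and 1871 CPM (148 UMIs) in takinib Rgs5 cells. Its class difference was narrower than that of Acta2, with log2 ratios of 1.37 (1.29 to 1.45) and 2.66. In fibroblasts the ratio of takinib over vehicle was -0.81 (-0.91 to -0.71). It was 0.0050 against female vehicle cells alone and more than 2-fold lower against male ones.

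Cnn1, calponin, an inhibitor of actomyosin sliding found in differentiated smooth muscle (chr9:22099216-22109630, plus strand), was the sparsest member. It had 74 UMIs (33.2 CPM) in vehicle Rgs5 cells, 60 (20.4 CPM) in vehicle fibroblasts, 30 (7.89 CPM) in takinib fibroblasts and 0 in the takinib Rgs5 cells, which allows up to 37.9 CPM. The log2 ratio of Rgs5 cells over fibroblasts was 0.70 (0.19 to 1.22), and the intervals of the levels overlapped. The 9 takinib fibroblasts with a UMI held all 30.

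Cald1, caldesmon, which binds actin and tropomyosin and has both smooth muscle and nonmuscle forms that these counts do not separate (chr6:34598500-34775473, plus strand), was found in most stromal cells. It stood at 2690 CPM (5999 UMIs) in vehicle Rgs5 cells, 1326 CPM (3900 UMIs) in vehicle fibroblasts, 951 CPM (3615 UMIs) in takinib fibroblasts and 2314 CPM (183 UMIs) in takinib Rgs5 cells. The log2 ratio of Rgs5 cells over fibroblasts was 1.02 (0.96 to 1.08) and that of takinib over vehicle fibroblasts -0.48 (-0.55 to -0.41). It had a UMI in 98.6% of vehicle Rgs5 cells and 86.2% of vehicle fibroblasts.

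The tropomyosins, the coiled coils that lie along actin filaments, were both higher in vehicle Rgs5 cells than in vehicle fibroblasts. Tpm1 (chr9:67022590-67049406, minus strand) stood at 1563 CPM (3487 UMIs) in vehicle Rgs5 cells, 525 CPM (1545 UMIs) in vehicle fibroblasts and 479 CPM (1820 UMIs) in takinib fibroblasts. Tpm2 (chr4:43514711-43523765, minus strand) stood at 599 CPM (1336 UMIs), 248 CPM (730 UMIs) and 248 CPM (943 UMIs) in the same order. Over the pooled cells both were thus near level between the fibroblasts of the libraries, with log2 ratios of -0.13 (-0.23 to -0.04) and 0.00 (-0.14 to 0.14). They parted in other settings. With cells thinned to equal depth Tpm1 lay at -0.50 (-0.82 to -0.19) and Tpm2 at 0.04. Against female vehicle cells they lay at 0.12 and 0.92. Both are made in many nonmuscle cells, and the counts do not separate their isoforms.

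Des, desmin, the intermediate filament of muscle and of many pericytes (chr1:75360329-75368579, plus strand), stood at 709 CPM (1582 UMIs) in vehicle Rgs5 cells and 122 CPM (360 UMIs) in vehicle fibroblasts. Takinib fibroblasts were at 84.7 CPM (322 UMIs) and takinib Rgs5 cells at 493 CPM (39 UMIs). The class difference was 5.79-fold and the ratio of takinib over vehicle fibroblasts -0.53 on the log2 scale (-0.75 to -0.31).

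Across the set, 9 of 10 members were more than 2-fold higher in Rgs5 cells than in fibroblasts of the vehicle library and 0 were more than 2-fold lower. Among all 7783 genes with at least 50 UMIs in either class, 8.3% were more than 2-fold higher and 12.5% more than 2-fold lower. The median log2 ratio was 1.97 over the members and 0.10 over all these genes. In the takinib library 7 of the 8 members with enough UMIs were more than 2-fold higher in the 15 Rgs5 cells, against 14.1% of the 6928 genes compared there. The exception was Tpm2, at a log2 ratio of 0.99. The perivascular markers used to set these cells apart summed to 13015 CPM in vehicle Rgs5 cells and 150 CPM in vehicle fibroblasts.

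Among the 10 vehicle classes with at least 50 cells, Rgs5 cells had the highest level of every member, and the interval met that of the next class for Cnn1 alone. Fibroblasts came next for 9 members. For Tpm1 the next class was epithelial, at 838 CPM against 525 CPM in fibroblasts, and epithelial cells held 60.0% of all vehicle Tpm1 UMIs and Rgs5 cells 21.7%. Rgs5 cells, 6.11% of vehicle cells, held 80.3% of the UMIs of Myl9, 80.1% of Myh11, 78.9% of Des, 78.6% of Acta2 and 77.0% of Actg2. They held 62.8% of Tagln, 52.5% of Cnn1, 41.2% of Tpm2 and 39.9% of Cald1. In takinib, where Rgs5 cells were too few to be ranked, fibroblasts were highest for every member, and the interval met that of endothelial cells for Myl9 (49.2 and 41.6 CPM).

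**Figure D1:**
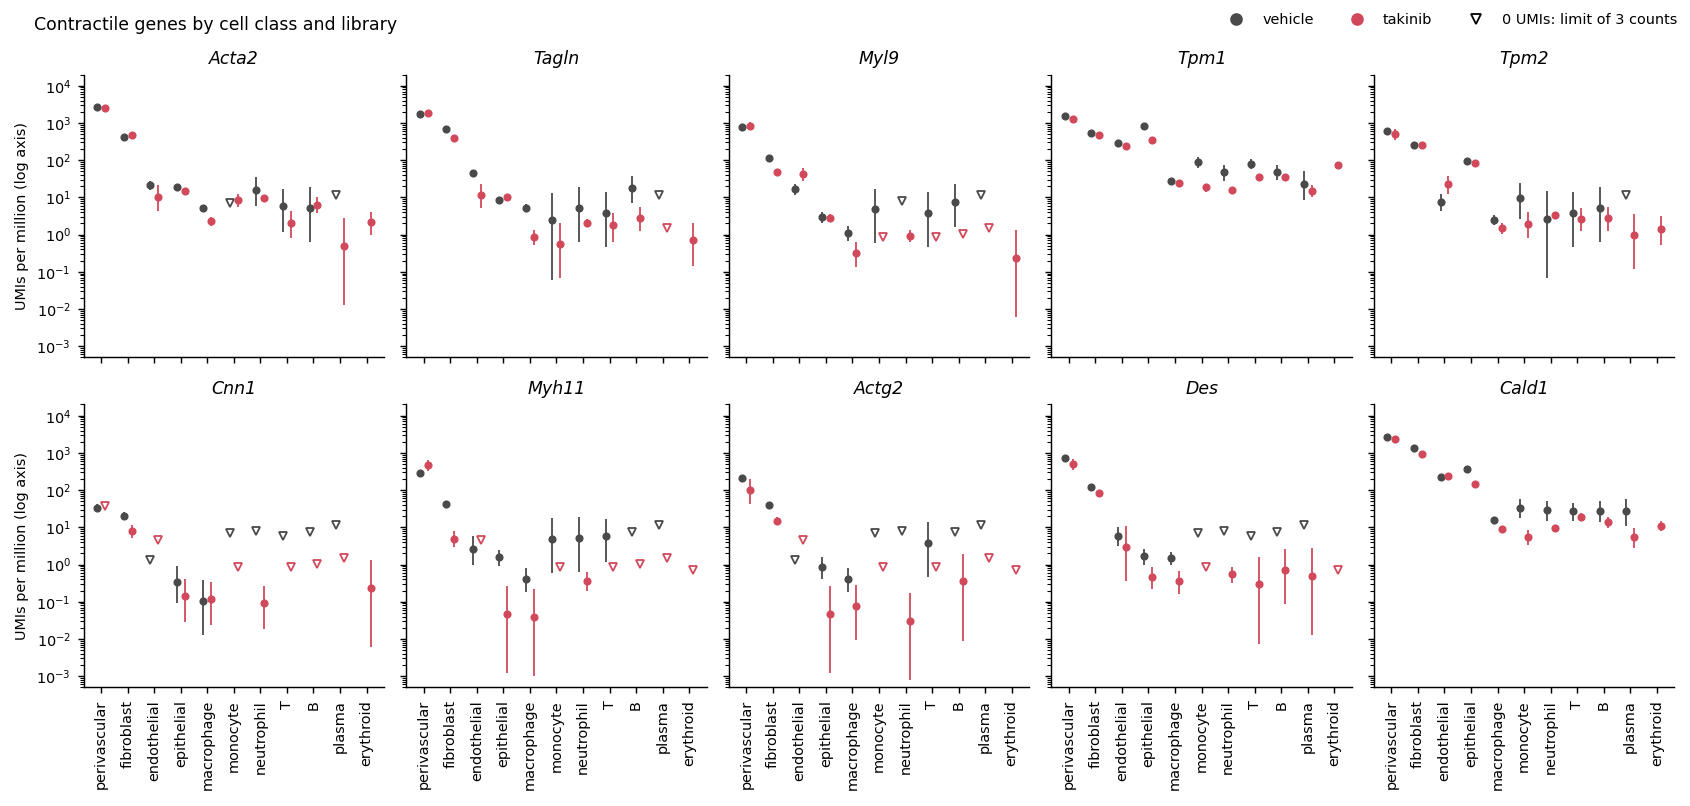
Level of each member (CPM, log axis) in the named cell classes of the vehicle and takinib libraries (acinar cells and the 4 vehicle erythroid cells not drawn), with exact 95% Poisson intervals as bars and open triangles at the limit set by 3 counts where a class had 0 UMIs. In vehicle, Rgs5 cells (perivascular) and fibroblasts lie above the other classes for every member but Tpm1, whose epithelial level of 838 exceeds that of fibroblasts. In takinib, Cnn1 had 0 UMIs in Rgs5 cells.

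The levels outside the stroma show what free RNA could give. Vehicle macrophages, which should lack the set, were at 5.07 CPM for Acta2, 15.6 CPM for Cald1, 28.2 CPM for Tpm1 and 0.105 CPM for Cnn1, with a median of 3850 UMIs a cell. Vehicle barcodes of under 100 UMIs held 84.4 CPM of Acta2, 69.1 of Tagln, 316 of Tpm1 and 221 of Cald1. All members were thus higher in vehicle fibroblasts than in either source. The low levels in macrophages were lower still in takinib: of 4 members measured 2 were more than 2-fold lower, Tagln at -2.63 and Acta2 at -1.16, against 5.05% of 11079 genes, and 0 were higher, against 6.01%. In endothelial cells 1 of 3 was lower, Tagln at -1.89, against 10.7% of 6660 genes, and 0 were higher, against 3.8%.

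Between the fibroblasts of the libraries, 4 of 10 members were more than 2-fold lower in takinib (Myh11, Actg2, Cnn1 and Myl9) and 0 were more than 2-fold higher, against 10.7% lower and 6.92% higher among 8397 genes. The median log2 ratio was -0.67 over the members and -0.10 over all genes. Tagln, Des and Cald1 were lower by less than 2-fold, and Acta2, Tpm1 and Tpm2 lay within 0.15 of 0. The largest subcluster of fibroblasts was not the same in the 2 libraries, as given below. With cells assigned one by one from marker UMIs, without clusters, the median was -0.16.

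In Rgs5 cells the takinib values come from 15 cells. Of the 9 members with a value 1 was more than 2-fold lower, against 16.9% of the 5920 genes compared: Actg2, with 8 UMIs, at a log2 ratio of -1.05 (-2.27 to -0.06). None was more than 2-fold higher, against 6.55%. The median was -0.22 over the members and -0.11 over all genes. Acta2 (-0.06, interval -0.27 to 0.14), Tagln (0.09, -0.15 to 0.33) and Myl9 (0.06) lay close to 0. The Rgs5 cells of the libraries were not alike in make-up. Rgs5 itself was at 4779 CPM in takinib against 9439 CPM in vehicle. The Rgs5 and Ednrb subcluster described below held 46.7% of the takinib and 71.8% of the vehicle cells. They also differed in number, at 6.11% of vehicle cells against 0.0596% of takinib cells. Whether that reflects the tumours, the mice or the dissociation cannot be told apart with 1 library each.

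Vehicle fibroblasts of male origin had more of every member than those of female origin. There were 138 fibroblasts with Xist and no Y-linked UMI (median 2812 UMIs) and 237 with Y-linked UMIs and no Xist (median 4575 UMIs). Acta2 was at 248 and 474 CPM in the female and male cells, Tagln at 387 and 892 CPM, Tpm2 at 131 and 302 CPM, and Myh11 at 4.09 CPM (2 UMIs) and 32.9 CPM (43 UMIs). Cnn1 had 0 UMIs in the female cells and 39 in the male cells, at least 4.86-fold lower by the limit of 3 counts. Among the 8 members with at least 50 UMIs, 3 were more than 2-fold lower in female cells (Tagln, Tpm2 and Actg2), against 2.29% of 4142 genes, and 0 were more than 2-fold higher, against 0.942%.

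In vehicle Rgs5 cells the order was the other way round for 8 of the 10 members, while the intervals of Des (log2 ratio of female over male 0.15) and Cald1 (0.08) spanned 0. The 46 female cells had 3697 CPM of Acta2 and the 203 male cells 2617 CPM, a log2 ratio of 0.50 (0.36 to 0.63). Tagln was at 2883 and 1818 CPM, Myh11 at 547 and 274 CPM, and Des at 786 and 709 CPM. None of the 9 members compared was past 2-fold in either direction, against 1.04% of 3158 genes higher and 5.03% lower. Origin stands for at least 2 mice here, so that sex and the individual tumour cannot be told apart. Within each origin Rgs5 cells stood above fibroblasts. Of the 8 members measured in female cells 8 were more than 2-fold higher in Rgs5 cells, against 5.42% of 1567 genes, and 0 lower, against 19.4%. In male cells 7 of 9 were higher, against 9.71% of 4489 genes, and 0 lower, against 14.2%.

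The comparison with takinib depends on which vehicle cells are used. Against female vehicle fibroblasts 0 of 8 measured members were more than 2-fold lower or higher in takinib, against 10.1% of 7814 genes in each direction, and Acta2 and Tpm2 were higher, each at a log2 ratio of 0.92 (intervals 0.653 to 1.197 and 0.55 to 1.31). Tagln lay at 0.0050 (-0.21 to 0.23). The takinib cells that had Xist gave the same counts, 0 of 8 in each direction, against 10.1% of genes higher and 10.0% lower. Against male vehicle fibroblasts 3 of 8 measured members, Actg2, Myl9 and Tagln, were more than 2-fold lower, against 7.08% of 7866 genes, and 0 higher, against 7.95%. Acta2 lay at -0.017 (-0.15 to 0.12). Myl9 and Cald1 were lower in takinib against both, at -0.62 and -1.38 for Myl9 and at -0.37 and -0.55 for Cald1. Myh11, at -2.72 against male cells, was at 0.29 against female cells with an interval from -1.76 to 3.43, since the female cells held 2 UMIs.

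**Figure D2:**
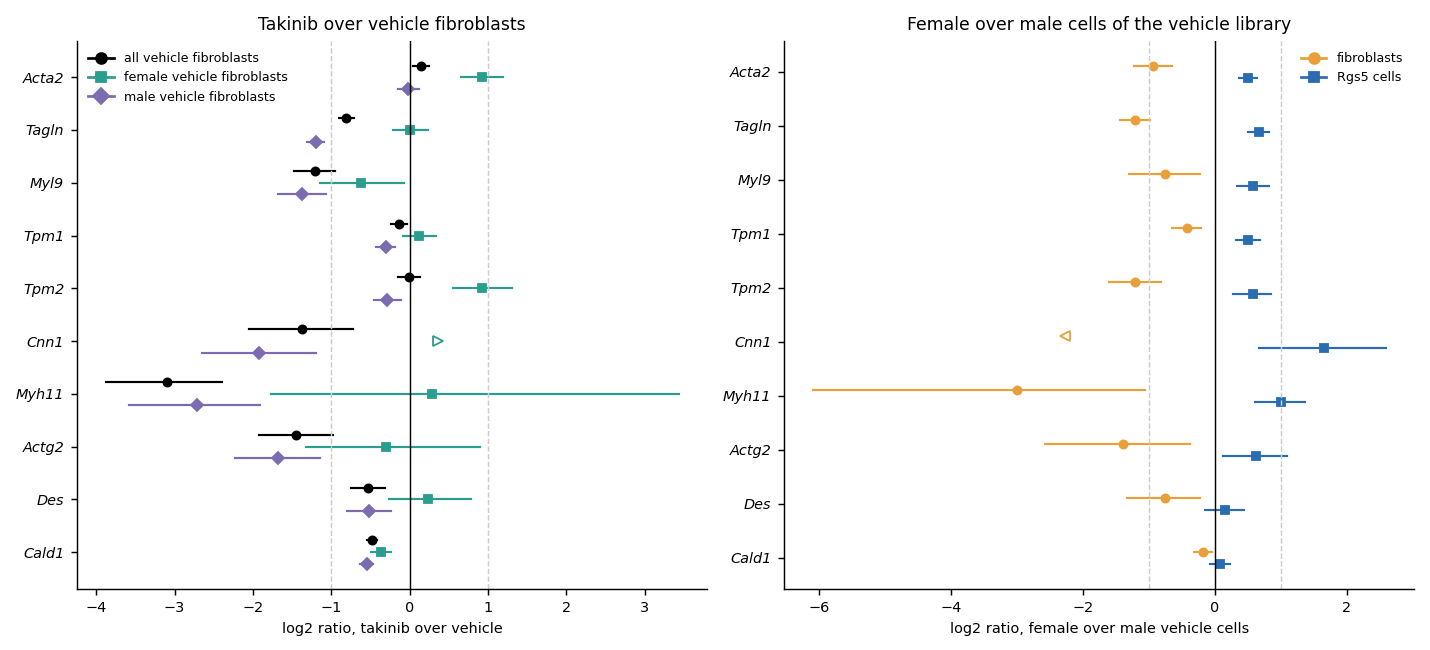
Log2 ratios with exact 95% counting intervals as bars. Left, takinib fibroblasts over all, female and male vehicle fibroblasts; right, female over male vehicle cells in fibroblasts and in Rgs5 cells; open triangles are bounds where 1 side had 0 UMIs, and dashed lines mark 2-fold. Acta2 runs from -0.017 against male cells to 0.92 against female cells, and 8 genes lie on opposite sides of 0 in fibroblasts and Rgs5 cells with intervals clear of it.

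With each cell thinned to 1000 UMIs, so that depth was equal, 60.6% of vehicle Rgs5 cells had an Acta2 UMI, against 15.04% of vehicle and 12.2% of takinib fibroblasts (without thinning 74.7%, 27.1% and 33.8%). Cald1 was found in 90.6%, 61.8% and 51.7%, Des in 50.0%, 10.6% and 5.40%, and Myh11 in 15.9%, 1.99% and 0.284%. In vehicle macrophages, taken as background, the shares ran from 0.0222% to 2.62% over the 10 genes. Members were thus found in more Rgs5 cells than fibroblasts: 1.02% of vehicle Rgs5 cells, 20.1% of vehicle fibroblasts and 30.1% of takinib fibroblasts had no UMI of any member. At least 5 members were found in 42.0%, 6.099% and 3.98% of the same cells.

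**Figure D3:**
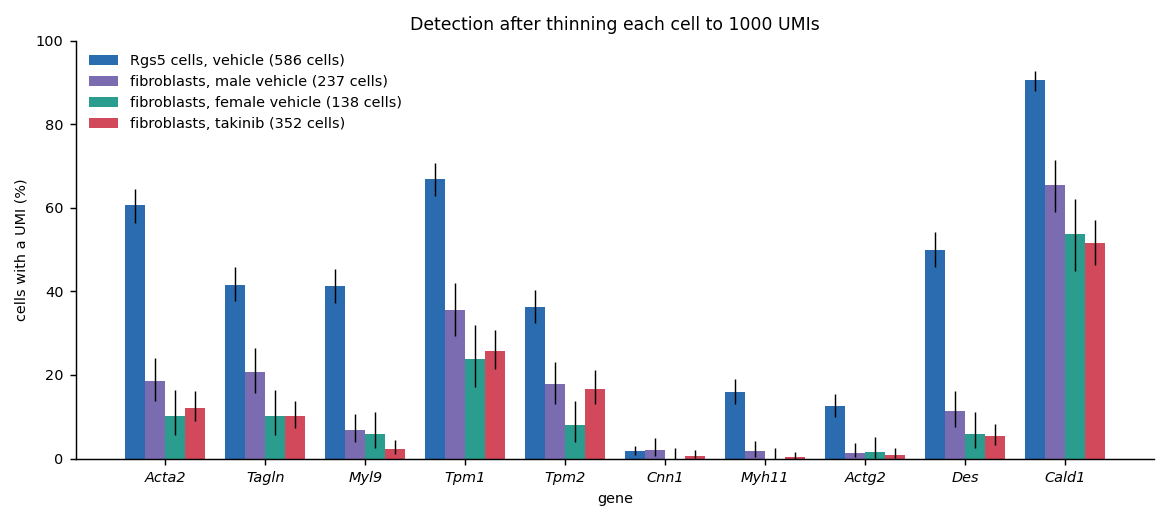
Share of cells with a UMI of each member after thinning each cell to 1000 UMIs, with exact 95% binomial intervals, in vehicle Rgs5 cells and in male vehicle, female vehicle and takinib fibroblasts. Rgs5 cells stand highest for every member but Cnn1, which was found in 1.71% of them.

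Within fibroblasts a few cells carried much of the signal. The 10 highest of 705 vehicle fibroblasts held 43.2% of the Acta2 UMIs, 40.2% of Tagln, 61.7% of Actg2 and 73.3% of Cnn1, but 9.33% of Cald1 and 17.1% of Tpm1. In takinib the 10 highest of 352 held 45.3% of Acta2 and 94.7% of Actg2. In vehicle Rgs5 cells the same number of cells held 18.2% of Acta2, 9.99% of Des and 7.10% of Cald1, and 38.3% of Myh11. In Rgs5 cells the shares of Acta2, Des and Cald1 were thus below those of Myh11 and Cnn1 (71.6%). A gene with few UMIs gives a high share by itself. Cnn1 had 74 UMIs in 25 of these cells and Myh11 664 in 168, against 5959 in 438 for Acta2.

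The stromal cells of both libraries were divided further, again without the genes of the lists, into 13 subclusters, which are called by their leading genes. The Igfbp3 and Fbn2 subcluster, with other matrix genes such as Col12a1 and Ltbp2, held 47.0% of vehicle fibroblasts and most of their contractile UMIs: 78.0% of Acta2, 82.1% of Tagln, 80.0% of Actg2 and 73.7% of Myl9. Its 333 vehicle cells had 712 CPM of Acta2 and 1110 CPM of Tagln. Its 20 takinib cells had 31.9 CPM of Acta2 and 95.6 CPM of Tagln, log2 ratios of -4.48 (-7.53 to -2.63) and -3.54 (-4.99 to -2.41). Tpm1 (-1.60), Tpm2 (-1.84) and Des (-2.34) were also more than 2-fold lower in takinib there, as were 18.4% of 4448 genes, and 0 members were more than 2-fold higher, against 7.51%. Myl9 and Actg2, with 1 takinib UMI each, were at -3.44 (-8.75 to -0.95) and -2.30 (-7.62 to 0.20).

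In takinib the contractile UMIs lay in another subcluster, led by Serpinb2 and S100a9. It held 157 takinib cells and 1 vehicle cell, and so may be the library and not a kind of cell. Its 154 fibroblasts were 43.8% of the takinib class and held 92.0% of its Acta2, 89.3% of Tagln, 98.2% of Actg2 and 70.4% of Cald1. The 157 takinib cells of the subcluster were deep (median 13020 UMIs), with 18365 CPM of fibroblast markers and 14241 CPM of S100a8 and S100a9. Their median doublet score was 0.105, against 0.0711 in the takinib and 0.0431 in the vehicle Igfbp3 cells, with scores made in each library alone. Their Acta2 level was 669 CPM, near the 712 CPM of the vehicle Igfbp3 cells, and Tpm2 was at 305 against 342 CPM. The other members were further below the vehicle Igfbp3 cells, among them Tagln at 537 against 1110 CPM. Myl9 was at 69.0 against 173 CPM, Actg2 at 22.7 against 78.7 CPM and Cald1 at 1032 against 1848 CPM.

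Within this subcluster the contractile genes were lower where neutrophil transcripts were more abundant. Cut at its median share of S100a8 and S100a9, the 79 cells with less (748 CPM of these genes) had 824 CPM of Acta2, 593 of Tagln and 1211 of Cald1. The 78 cells with more (36521 CPM) had 414, 445 and 736 CPM. Depth differed as well, with medians of 19683 and 9858 UMIs. Serpinb2 followed the same order, at 2795 and 538 CPM, while Col1a1 (5178 and 4481 CPM) and Col1a2 (4062 and 4216 CPM) were nearly level. The part of depth in this difference was not tested. Without the subcluster, 198 takinib fibroblasts remained, with Acta2 at a log2 ratio over vehicle of -1.97 and the median of the members at -2.14. The vehicle Igfbp3 cells were kept. Lower ratios therefore follow from taking out the cells that held most UMIs of the members in takinib fibroblasts.

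Besides the Igfbp3 subcluster, 3 fibroblast subclusters had at least 20 cells of each library. The Lgals7 and Enpp2 cells, which carry the mesothelial marker Upk3b, were compared at 92 vehicle and 90 takinib cells, which were 13.05% and 25.6% of the fibroblasts of their libraries. There the Acta2 level was 65.9 CPM in vehicle cells and 112 CPM in takinib cells (log2 ratio 0.77, interval 0.20 to 1.36), Tagln was level at 0.05 (-0.41 to 0.52), and Des was lower in takinib at -1.41 (-2.07 to -0.77). Of the 7 members with a value there Des was the one more than 2-fold lower, against 3.71% of 2316 genes, and 0 were more than 2-fold higher, against 3.2%. In the Dpt and Ly6c1 cells (60 and 29), Acta2 was at 0.98 (0.22 to 1.78), Tpm2 at 1.46 (0.75 to 2.22) and Des at -2.19 (-3.75 to -0.90), where 6.15% of 716 genes were more than 2-fold higher and 7.68% lower. Des was thus lower and Acta2 higher in takinib in both of these subclusters. In the Igf2 and Gdf10 cells (79 and 33), Tagln was at 1.91 (0.30 to 3.76), Acta2 at 1.81 (-0.03 to 3.97) and Des at -1.68 (-3.69 to -0.10), from few UMIs, where 4.95% of 444 genes were more than 2-fold higher and 8.11% lower.

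A further 54 vehicle fibroblasts and 0 takinib cells formed a subcluster led by Hhip, a hedgehog-binding protein, and Adamdec1. They had 1593 CPM of Acta2, 792 CPM of Myh11, 503 CPM of Myl9 and 140 CPM of Cnn1, but 37.3 CPM of Des. These 7.66% of vehicle fibroblasts held 67.5% of the class's Myh11 UMIs and 25.0% of its Cnn1. Without them the median of the members was -0.68. Tcf21, a fibroblast transcription factor, was among their leading genes, and their perivascular markers summed to 121 CPM.

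The Rgs5 cells were uneven too. Most of them, 421 vehicle cells, fell in a subcluster led by Rgs5 and Ednrb with 2071 CPM of Acta2 and 239 CPM of Myh11. Another subcluster of 132 vehicle cells, led by Col10a1 and Mmp9 and with 3301 CPM of Rgs5 against 13107 CPM in the former, had more Acta2 (2798 CPM) and Actg2 (308 against 110 CPM) but less Myh11 (53.6 CPM). A small group of 19 cells, 3.24% of the class, was led by Myh11 and Pi15. It held 54.1% of the Cnn1 UMIs, 44.0% of Myh11 and 24.8% of Tagln, with levels of 14373 CPM for Acta2 and 14959 CPM for Tagln. All 7 vascular smooth muscle markers had counts in it and in the Rgs5 and Ednrb cells, at 1371 CPM and 489 CPM in sum. The group of 19 cells was found again in 4 of 19 other starts of the clustering. Without it the median log2 ratio of Rgs5 cells over fibroblasts was 1.74 over the members, with Cnn1 at -0.38.

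**Figure D4:**
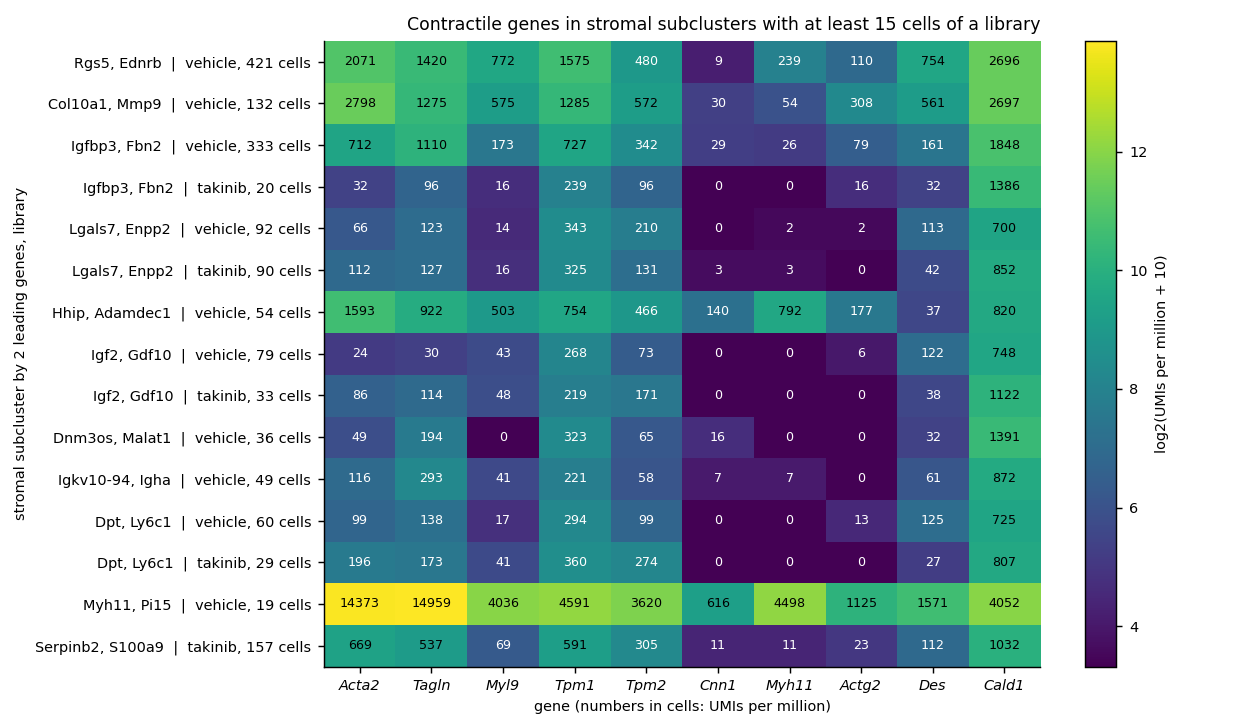
Level of each member (numbers, CPM; colour, log2 of the level plus 10) in the stromal subclusters with at least 15 cells of a library, which are named by their 2 leading genes. The Myh11 and Pi15 cells stand highest for Acta2 at 14373, the takinib Igfbp3 and Fbn2 cells are at 31.9 and the takinib Serpinb2 and S100a9 cells at 669.

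Epithelial cells, which are known to make nonmuscle forms of tropomyosin and caldesmon, differed between the libraries in Tpm1 and Cald1. Tpm1 was at 838 CPM (9641 UMIs) in 1731 vehicle cells and 350 CPM (7402 UMIs) in 1851 takinib cells, a log2 ratio of -1.26 (-1.31 to -1.22). Cald1 was at 370 CPM (4259 UMIs) and 142 CPM (3017 UMIs), a ratio of -1.38 (-1.45 to -1.31). These were 2 of 6 members measured there, against 7.69% of 12500 genes more than 2-fold lower, and 0 were higher, against 7.25%. Tpm2 lay at -0.17 (-0.28 to -0.06). The epithelial cells were not divided by origin or by cluster. The cluster led by Cdkn2a held 892 vehicle and 710 takinib cells, and the cluster led by Gkn2 held 22 and 228.

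Other genes of the contractile apparatus followed the class difference. Of 31 further smooth muscle genes, 28 were measured in the vehicle stroma, and 18 were more than 2-fold higher and 1 lower in Rgs5 cells, against 8.3% and 12.5% of all genes, with a median log2 ratio of 1.24. Among them were Kcnmb1, a potassium channel subunit (6.53), Ppp1r14a, an inhibitor of myosin phosphatase (4.94), and Lmod1, a nucleator of smooth muscle actin (3.70). The lower one was Csrp2 (-1.32). Of the 13 nonmuscle counterparts 1 was higher (Tpm4, 1.29) and 1 lower (Myh10, -2.37), shares near those of all genes. Tpm4 belongs to both lists and is counted in each. The median of the nonmuscle genes was 0.54, so that they stood nearer the median of all genes than the smooth muscle genes did.

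Between the fibroblasts of the libraries, 22 of the 31 further smooth muscle genes were measured. In takinib 5 were more than 2-fold lower, with the 3 lowest being Mylk, the kinase of the myosin light chain (-2.54), Mrvi1 (-2.52) and the integrin gene Itga1 (-1.08), and 1 was higher, the focal adhesion gene Zyx (1.25), against 10.7% lower and 6.92% higher among all genes. Their median was -0.16. Against female vehicle fibroblasts 2 were lower and 2 higher, with a median of 0.04, where 10.1% of all genes were past 2-fold in each direction. Of the 13 nonmuscle counterparts Tagln2 was higher (1.59), Myh10, a nonmuscle myosin heavy chain, was lower (-1.71), and the median was 0.00. Mylk and Myh11, the kinase and the heavy chain of smooth muscle contraction, thus stood lowest in their lists.

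Genes that control the programme were compared as well. Of 34 in the list 26 were measured, 7 were more than 2-fold lower and 0 higher, against 10.7% and 6.92% of all genes, with a median of -0.60. The 3 lowest were Tcf21 (-3.92), the Notch target Heyl (-3.45) and the ligand Tgfb3 (-2.32). The receptors Ednra (-1.86), Pdgfrb (-1.67) and Tgfbr2 (-1.67) and the ligand Tgfb1 (-1.31) were the others. In the vehicle stroma 11 of 29 were more than 2-fold higher in Rgs5 cells, against 8.3% of all genes, among them Notch3 (6.00), a perivascular marker that also served to name the class, and the angiotensin receptor gene Agtr1a (5.13). There 4 were lower, against 12.5%: Tcf21 (-3.15), Klf4 (-2.36), Tgfbr2 (-2.19) and Smad3 (-1.45).

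**Figure D5:**
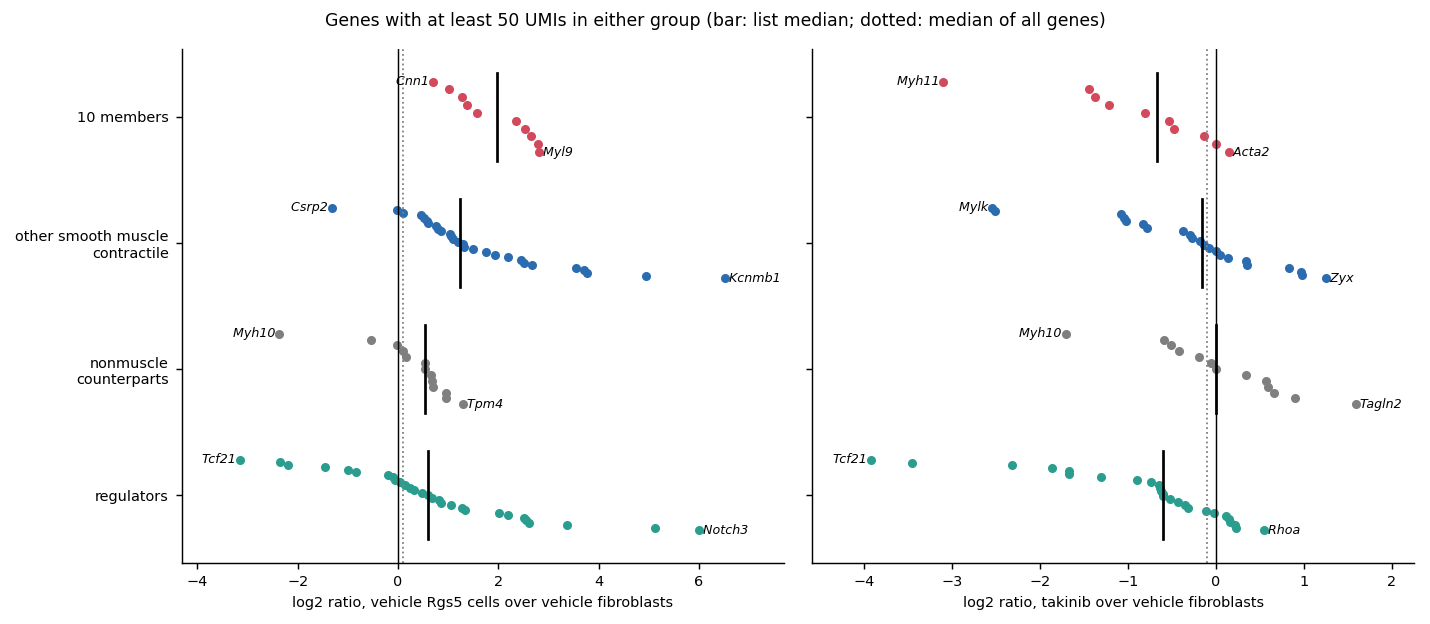
Log2 ratios of the genes of 4 lists with at least 50 UMIs in either group: left, vehicle Rgs5 cells over vehicle fibroblasts; right, takinib over vehicle fibroblasts; each point is 1 gene, bars are list medians and the dotted line is the median of all genes. The members' median is 1.97 on the left and -0.67 on the right, with Myh11 lowest of the members at -3.10.

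Outside the lists and markers, the 10 genes whose level over 20 units of class and library was most like the mean of the members were Pla2r1, Cd248, Col5a3, Rgma, P4ha3, Col6a3, Mirg, Smarca1, Arhgef17 and Prkg1. Pearson's r ran from 0.98 for Pla2r1 to 0.96 for Prkg1, on log2 of CPM plus 10. The units share 2 libraries and their depth, and both stromal classes weigh on every such value. Cd248, endosialin, stood at 831 CPM in vehicle Rgs5 cells, 211 CPM in vehicle fibroblasts and 103 CPM in takinib fibroblasts. Col6a3, a collagen VI chain, stood at 1253, 359 and 185 CPM. Prkg1, the cGMP-dependent kinase of smooth muscle relaxation, stood at 96.4, 27.9 and 15.3 CPM. Since the genes were picked for their likeness to the members over these same units, a shared order is part of the choice. Of the 10 genes Col5a3 went the other way between fibroblasts, at 144 CPM in vehicle and 170 CPM in takinib. Among the members r ran from 0.85 for Tpm1 to 0.97 for Acta2.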

How the data were processed

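The authors deposited counts of UMIs, 1 value for each gene in each barcode, made with Cell Ranger 4 for vehicle and 6.1.1 for takinib per the file headers; the submitters' processing notes name Cell Ranger 2.1.1 and the build mm10. The vehicle matrix lists 704261 barcodes, empty ones included, and the takinib matrix 34158 with at least 500 UMIs, so the same filters were applied to both here: a minimum of 1000 UMIs and 500 genes and a mitochondrial share of at most 20%, which left 9872 and 26790 barcodes with median mitochondrial shares of 8.71% and 1.78% after doublets were removed. Scrublet removed 281 vehicle doublets at its automatic threshold; in takinib that threshold marked 0.00373%, too few to be working, and the 6% with the highest scores, 1607, were removed. No free RNA correction was made. The columns of all samples given were used.

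The libraries were clustered together with scanpy 1.11.5 (2000 variable genes without the genes of the 4 lists, 30 principal components, 15 neighbours, Leiden resolution 1, igraph 0.11.9), and clusters were named from marker lists. Endothelial, epithelial, acinar, macrophage, monocyte, neutrophil, T, B, plasma and erythroid clusters were named besides the stromal classes. Stromal cells were divided again (20 components, resolution 0.5, the best of 20 starts). Counts summed per class and library were scaled to CPM, and ratios are log2 without a pseudocount, with exact conditional binomial intervals; a ratio was counted as called past 2-fold with at least 50 counts in either group, and a count of 0 was given a limit of 3 counts. Levels have exact Poisson and shares exact Clopper-Pearson intervals. The ratio script was tested on simulated data. A list is described by its counts and its median. Named are all members; of each other list the genes past 2-fold between the libraries' fibroblasts, up to the 3 highest and 3 lowest; and the 10 genes most like the members' mean. The other regulators, the genes named for the vehicle stroma and the subclusters were chosen after their values were seen. The members and lists were chosen with earlier results of these data known. Alternatives tried were stricter cell filters, thinning, doublets kept, a pseudocount of 10 CPM, other scalings, other classes and the origin of vehicle cells. Gene positions are from GENCODE M21 on GRCm38; the last 500 bases of the members' longest transcripts share no run of 50 bases with another gene there.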

Additional observations from a re-analysis of the deposited data

Results flagged for a closer look

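Several members differed between female and male vehicle cells in opposite directions in the 2 stromal classes, with intervals clear of 0 on both sides; the difference between the classes was not tested. The log2 ratio of female over male cells was -0.94 in fibroblasts and 0.50 in Rgs5 cells for Acta2, -1.20 and 0.67 for Tagln, -0.75 and 0.58 for Myl9, -0.43 and 0.50 for Tpm1, and -1.21 and 0.57 for Tpm2. It was -1.39 and 0.62 for Actg2. For Myh11 it was -3.01 (-6.097 to -1.07), with 2 UMIs in the female fibroblasts, and 1.00. For Cnn1, with 0 UMIs in the female fibroblasts, it was at most -2.28 against 1.66. The Igfbp3 and Fbn2 subcluster held 73 female and 119 male vehicle cells. The Igf2 and Gdf10 subcluster held 32 and 10, and the Hhip subcluster 1 and 13. The part of these shares in the ratios was not tested.

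The ratio of takinib over vehicle for Myh11 was also opposite in the classes, -3.10 in fibroblasts and 0.65 in Rgs5 cells, the latter from 37 UMIs in 15 cells, and this difference was not tested.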

How the results depend on the processing

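The median log2 ratio of the members between takinib and vehicle fibroblasts was -0.67 and kept its sign in every alternative but 1: with female vehicle cells alone it was 0.18. The value of 0.18 includes a bound for Cnn1 and a Myh11 ratio from 2 female UMIs. Over the 8 members with at least 50 UMIs it was 0.06. The median of the members was -0.16 with cells assigned one by one. Further alternatives were chosen after the data were seen. They gave -0.87 with male vehicle cells alone, -2.14 without the takinib Serpinb2 subcluster and -1.97 without that and the Hhip subcluster. Lower values without the Serpinb2 subcluster follow from the removal, since it held most UMIs of the members in takinib fibroblasts. The number of members more than 2-fold lower was 4, against 10.7% of all genes. With female vehicle cells alone it was 0, against 10.1%. For cells assigned one by one and without the subclusters the share of all genes was not computed, so no count is given. For Acta2 the sign turned with thinning (-0.30), with male cells (-0.017), without the Serpinb2 subcluster (-1.97) and without that and the Hhip subcluster (-1.80). Others that turned were Tpm1 with cells assigned one by one (0.021) and female cells (0.12), Cnn1 in the same 2 settings (0.23 and a bound of 0.36), and, with female cells, Tagln (0.0050), Myh11 (0.29) and Des (0.24). Tpm2, whose main interval spanned 0, lay above 0 in 7 of 17 settings, the main one included, and reached 0.92. The median of Rgs5 cells over vehicle fibroblasts, 1.97, stayed above 0 throughout and was 1.74 with cells assigned one by one, 3.68 with female cells, 1.73 with male cells and 1.74 without the Myh11 subcluster, where Cnn1 turned to -0.38. The causes were not tested. The 0.00373% share of takinib doublets marked automatically means that doublets were removed by different thresholds in the libraries. No paired analysis was possible because each group has 1 library. Depth limits Cnn1, Myh11 and Actg2, with 60, 126 and 120 UMIs in vehicle fibroblasts and 30, 19 and 57 in takinib.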
